A study of Mus musculus with 6 samples.

Results

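Translation initiation factors are the proteins that bring a ribosome, the initiator tRNA and an mRNA together at a start codon. Their transcripts were followed here in mouse bone marrow as all genes whose platform symbol starts with Eif1, Eif2, Eif3, Eif4, Eif5 or Eif6, read from probe sets with exactly 1 symbol, leaving out the eIF2 kinases (Eif2ak) and the Y-linked Eif2s3y. The rule uses names only and no measured value, but it was set with earlier results of these data known. It gave 42 genes of 18193 on the array and 118 probe sets of 45037. Marrow was taken from adult female F1 mice of 2 crosses, with 3 arrays each. The (AKR/J x FVB/NJ)F1 cross is called AKR F1 here, the (DBA/2J x FVB/NJ)F1 cross DBA F1, and both carry 1 set of FVB/NJ chromosomes. The question was which transcripts differ in their basal level between the genotypes. Nothing in the labels says that the arrays came from separate animals, so p-values cover only the spread from sample to sample, which may be technical.

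Most initiation in animal cells begins at the capped end of the mRNA. eIF4E binds the cap, eIF4G is the scaffold beside it and the helicase eIF4A opens structure, helped by eIF4B and eIF4H, while small eIF4E-binding proteins compete with the scaffold. eIF2 carries the initiator tRNA to the small ribosomal subunit, which also holds eIF1, eIF1A, eIF5 and the many-subunit eIF3, and eIF2B reloads eIF2 with GTP after each round. eIF5B joins the subunits, and eIF6 keeps the large subunit apart until it is needed. Bone marrow makes red cells, granulocytes and lymphocytes at a high rate, and red cell precursors are known to tune eIF2 to the supply of heme.

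Values are log2 expression, and a gene is represented by the brightest of its probe sets unless probe sets are named. Differences are AKR F1 minus DBA F1 with the standard error of a limma fit, and a gene was called when its p-value, adjusted over all 18193 genes, was under 0.05. Array medians lay between 5.14 and 5.19, lower quartiles between 3.68 and 3.75, and the number of arrays limits the precision. Mean marker levels of several marrow cell types differed between the crosses, but not every marker of a list did. The mean of 6 neutrophil markers was 13.85 to 13.89 in AKR F1, against 13.42 to 13.80 in DBA F1, and 1 of them, Elane, was called higher (by 0.82). The other neutrophil markers did not pass, with Mpo at 0.34, Ltf at 0.16, Camp at 0.14, Ngp at 0.04 and S100a8 at -0.03. The mean of 5 red cell markers was 9.97 to 10.03 in AKR F1, against 9.71 to 9.89 in DBA F1, with 2 called higher. The mean of 5 T cell markers was 6.99 to 7.17 in AKR F1, against 6.76 to 6.81 in DBA F1, with Cd3e and Cd4 called higher. The mean of 5 B cell markers overlapped, at 9.40 to 9.83 in AKR F1 and 9.46 to 9.69 in DBA F1, but Cd79a was called higher (1.32) and Ms4a1 and Ebf1 lower (-0.99 and -0.86). The mean of 3 liver markers, all dim, was 5.50 to 5.68 in AKR F1, against 5.31 to 5.38 in DBA F1, with Apoa1 called higher. The single-symbol probe set of Hba-a1, an alpha globin gene, read only 3.70 in AKR F1 and 3.68 in DBA F1. Technical measures and muscle markers moved with the crosses too. A 3′ minus 5′ index was averaged over control transcripts, namely mouse actin and Gapdh and the bacterial controls dap, lys, phe and thr. It was 1.25, 2.03 and 1.80 in AKR F1 arrays 1 to 3, against 1.23, 1.09 and 1.03 in DBA F1. Because bacterial controls enter it, the index is no measure of the state of the marrow RNA alone. The hybridization controls averaged 10.08, 10.21 and 10.28 in AKR F1, against 10.62, 11.03 and 10.69 in DBA F1. The 15 skeletal muscle markers averaged 7.46, 8.07 and 6.83 in AKR F1, against 11.48, 8.71 and 9.64 in DBA F1, and 9 of them were called lower. These 3 measures did not overlap between the crosses, nor did the means of the neutrophil, red cell, T cell and liver markers. The 3 were tried as covariates below, and the part of the other markers in the results was not tested.

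The initiation factor transcripts differed between the crosses in both directions and by small amounts. Of the 42 genes, 5 were higher in AKR F1 (Eif3b, Eif6, Eif2b4, Eif3k and Eif2b2), 6 were lower (Eif3a, Eif2a, Eif1a, Eif3e, Eif4a2 and Eif4g2) and 31 did not pass. The largest of these differences was 1.57-fold and the smallest 1.26-fold. These 11 genes are 26.2% of the 42, against 15.2% of all genes called, of which 9.20% were called higher and 6.04% lower. Initiation factor genes are bright, 41 of them above the median probe set level, and of all 11549 genes above that level 22.3% were called. In a fit of only the genes above that level, 29.3% of these 41 were called, against 25.6% of all. The 41 were still brighter, with a median level of 10.18 against 7.89, so signal was not fully matched. The median difference over the 42 genes was -0.01, against 0.06 over all genes. The arrays of the crosses did not overlap for 23 of the 42 genes (54.8%), against 36.7% of all genes and 47.3% of those above the median level. In bulk marrow, fewer cells that hold a transcript and less of it per cell cannot be told apart.

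The count of 11 depended on single arrays. It was 7 without AKR F1 array 1, 2 without array 2, 4 without array 3 and 6 without DBA F1 array 2, while the share of all genes called in the same fits was 7.67%, 3.77%, 4.36% and 8.71%. With the 3′ minus 5′ index, the hybridization controls or the muscle mean as a covariate no member passed, and the share of all genes called was 0.115%, 0.00550% and 0.401%. All 11 genes kept their sign in these fits, with standard errors a median of 1.60, 2.32 and 1.82 times as large. The fitted differences moved too, and some shrank while others grew. With the hybridization controls Eif4g2 went from -0.33 to -0.08 and Eif4a2 from -0.38 to -0.72. With the 3′ minus 5′ index Eif3k went from 0.37 to 0.16, and with the muscle mean Eif2a went from -0.64 to -1.05. Of the 11 genes, Eif3a and Eif6 passed in each of the 6 fits with 1 array left out.

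**Figure D1:**
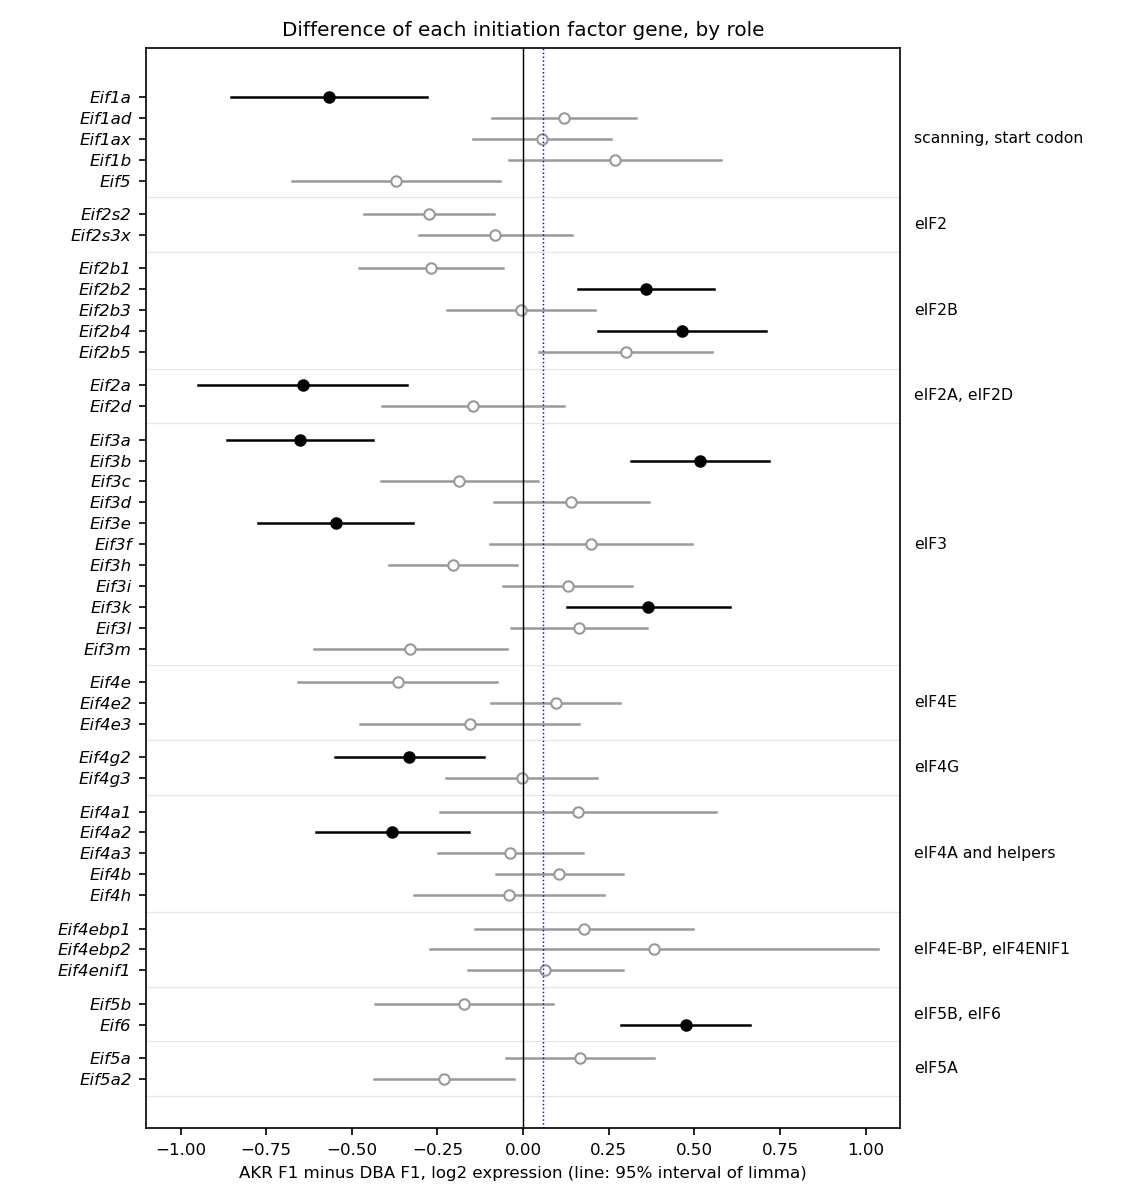
Difference in log2 expression (AKR F1 minus DBA F1, horizontal axis) of each of the 42 initiation factor genes, grouped by role; points are the fitted differences, lines their 95% intervals, filled black symbols the 11 genes past the test, and the dotted line the median of all genes (0.06). Within eIF3, 2 called genes lie on each side of 0.

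eIF3 is the largest initiation factor, a scaffold of many subunits on the small ribosomal subunit. Its subunits did not move as a block. Of 11 measured subunit genes Eif3a and Eif3e were lower in AKR F1, Eif3b and Eif3k were higher and 7 did not pass. The called share was 36.4%, against 15.2% of all genes and 22.3% of those above the median level. Eif3a was at 10.18, 10.04 and 10.13 in AKR F1 arrays 1 to 3, against 10.78, 10.66 and 10.87 in DBA F1. Every DBA F1 array lay above every AKR F1 array, a difference of -0.65 (SE 0.09, limma adjusted p = 0.0062). Eif3e, whose protein also docks mRNA-binding and decay factors, was at 11.41, 11.27 and 11.44 in AKR F1, against 11.85, 11.85 and 12.06 in DBA F1. The arrays did not overlap, and the difference was -0.55 (SE 0.10, limma adjusted p = 0.012). Without AKR F1 array 2 it no longer passed (adjusted p = 0.058).

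Eif3b went the other way from Eif3a. It was at 10.35, 10.52 and 10.44 in AKR F1, against 9.87, 9.97 and 9.92 in DBA F1. All AKR F1 arrays were the higher ones, with a difference of 0.52 (SE 0.09, limma adjusted p = 0.010) that just missed the threshold without AKR F1 array 2 (adjusted p = 0.051). Eif3k was at 11.37, 11.60 and 11.59 in AKR F1, against 11.22, 11.21 and 11.03 in DBA F1. Array 1 of AKR F1 was nearest to the DBA F1 arrays. Its difference of 0.37 (SE 0.10, limma adjusted p = 0.048) was lost in each of the 6 fits that left out 1 array, with adjusted p from 0.050 to 0.16, and after centring the arrays on their medians (adjusted p = 0.058). Eif3b and Eif3k rest on 1 probe set each, and in the test of all probe sets Eif3k did not pass (adjusted p = 0.058).

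The other 7 eIF3 genes had differences between -0.33 (Eif3m, SE 0.12, limma adjusted p = 0.11) and 0.20 (Eif3f, SE 0.13, adjusted p = 0.34). Eif3f was even in AKR F1, at 12.24, 12.23 and 12.31, and spread in DBA F1, at 12.31, 12.08 and 11.80. Eif3h was at 11.17, 11.15 and 11.24 in AKR F1, against 11.37, 11.39 and 11.41 in DBA F1, which did not overlap but missed the threshold (adjusted p = 0.13). Eif3i and Eif3l also had no overlap, with AKR F1 higher by 0.13 and 0.16, and did not pass. Over all 11 eIF3 genes 8 (72.7%) had no overlap, against 36.7% of all genes and 47.3% of those above the median level. Eif3c and Eif3d overlapped between the crosses, at -0.19 and 0.14. Eif3m passed in 1 of the 6 fits, without DBA F1 array 1 (adjusted p = 0.033).

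**Figure D2:**
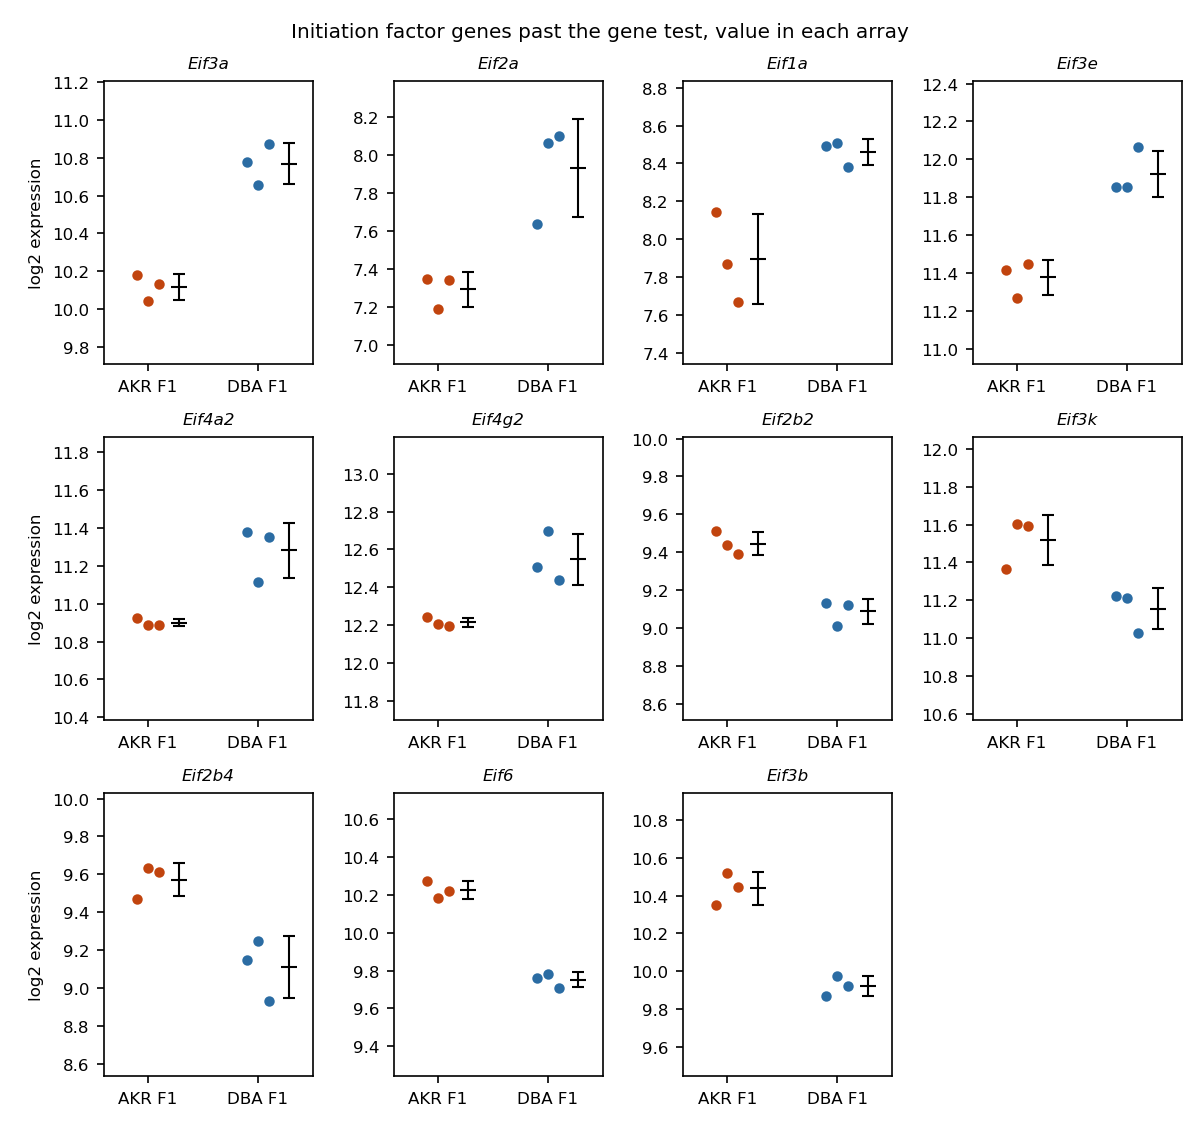
Log2 expression (vertical axis, each panel spans the same 1.5 log2 units) of the 11 initiation factor genes past the test, for 3 AKR F1 arrays (left in each panel) and 3 DBA F1 arrays (right); dots are arrays in replicate order, bars the mean ± SD. The crosses do not overlap in any panel, and the means lie farthest apart in Eif3a (-0.65).

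eIF2B exchanges GDP for GTP on eIF2 and is the step that eIF2 kinases block. Of its 5 subunit genes the beta and delta subunits, Eif2b2 and Eif2b4, were higher in AKR F1 and none was lower, beside 9.20% and 6.04% of all genes. Eif2b4 was at 9.47, 9.63 and 9.61 in AKR F1, against 9.15, 9.25 and 8.93 in DBA F1. The difference was 0.46 (SE 0.11, limma adjusted p = 0.025) and was lost without AKR F1 array 2 or 3 (adjusted p up to 0.10). Eif2b2 was at 9.51, 9.44 and 9.39 in AKR F1, against 9.13, 9.01 and 9.12 in DBA F1. Here the arrays of each cross lay close together, and the difference was 0.36 (SE 0.09, limma adjusted p = 0.029). It did not pass when an AKR F1 array or DBA F1 array 2 was left out (adjusted p up to 0.096). Eif2b2 has 2 dimmer probe sets, with differences of 0.12 and 0.23, which did not pass, and the mean over its probe sets gave 0.23 (adjusted p = 0.091).

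The catalytic epsilon subunit gene Eif2b5 was at 8.84, 9.00 and 8.99 in AKR F1, against 8.72, 8.77 and 8.44 in DBA F1, with no overlap and a difference of 0.30 that did not pass (limma adjusted p = 0.11). Eif2b1, the alpha subunit gene, had the opposite sign, at 8.72, 8.53 and 8.56 in AKR F1, against 8.80, 8.90 and 8.91 in DBA F1 (difference -0.27, adjusted p = 0.085). Eif2b3 differed by -0.01, with a 95% interval from -0.22 to 0.21.

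Of the 42 genes 33 had a promoter in RefSeq's table (build GRCm38.p6), a window of 300 bases from 250 before to 50 after the gene's start. These windows were searched on both strands for CACGTG, the E-box that MYC proteins bind and which is known from the eIF4E gene, and for CCGGAAG, a core of sites for ETS factors. By their letters the 2 motifs cannot overlap. CCGGAAG was found in 14 of the 33 promoters (42.4%), against 15% of the 14369 array genes with a promoter, and CACGTG in 9 (27.3%), against 10.3%. Both called eIF2B genes hold CCGGAAG just after the start, and their windows are shown for that reason, with the motif in capitals.
Eif2b2, chr12:85219467-85219510, plus strand: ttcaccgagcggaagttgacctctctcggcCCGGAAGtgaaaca
Eif2b4, chr5:31193110-31193168, minus strand: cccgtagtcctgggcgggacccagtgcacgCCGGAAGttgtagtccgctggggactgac
The motif begins 17 bases into the transcript in Eif2b2 and 2 bases into it in Eif2b4, counting the start as base 1. Of the 14 genes with CCGGAAG 2 were called higher and none lower, with a median difference of 0.13. Of all 42 members 5 were called higher and 6 lower, and of all genes on the array 9.20% and 6.04%. Whether the calls go with the motif was not tested.

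CACGTG was present in 2 eIF3 genes that were called in opposite directions, Eif3a and Eif3k, and in the cap-binding factor Eif4e. These windows are shown to set the same motif beside differences of both signs.
Eif3a, chr19:60790664-60790701, minus strand: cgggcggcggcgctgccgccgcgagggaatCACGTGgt
Eif3k, chr7:28981897-28981962, minus strand: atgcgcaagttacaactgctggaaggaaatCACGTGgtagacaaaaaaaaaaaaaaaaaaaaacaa
Eif4e, chr3:138527018-138527075, plus strand: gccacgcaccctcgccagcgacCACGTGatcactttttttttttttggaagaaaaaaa
The motif begins at base 23 of the transcript in Eif3a, at base -44, before the start, in Eif3k and at base -228 in Eif4e, where the 300 bases hold 2 matches and the first is shown. Of the 9 genes with CACGTG 1 was called higher and 1 lower, beside 9.20% and 6.04% of all genes. The median difference of the 9 was 0.16. A match of letters is a description and no evidence that a factor binds there.

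eIF2 itself, the carrier of the initiator tRNA, was measured through its beta and gamma subunits, and neither passed the gene test. The brightest probe set of Eif2s2 was at 11.16, 11.07 and 11.15 in AKR F1, against 11.37, 11.39 and 11.45 in DBA F1. The crosses did not overlap, but the difference of -0.27 stayed short of the threshold (SE 0.08, limma adjusted p = 0.059). It passed in a robust fit with a variance trend (adjusted p = 0.043), without dim probe sets (0.047) and with array weights (0.034). The mean over the probe sets of Eif2s2 also passed, at -0.36 (adjusted p = 0.047). In none of the 6 fits with 1 array left out did Eif2s2 pass. Of its 6 probe sets 2 were lower in the test of all probe sets. One was at 9.89, 9.43 and 9.66 in AKR F1, against 10.45, 10.34 and 10.49 in DBA F1 (difference -0.77). The other was at 9.58, 9.46 and 9.46 in AKR F1, against 10.07, 10.35 and 10.24 in DBA F1 (difference -0.72), so neither overlapped. The second brightest probe set of Eif2s2, brighter than both of these, differed by only -0.03 and did not pass. The remaining ones differed by -0.05 and -0.29 and did not pass either. The X-linked gamma subunit gene Eif2s3x had a difference of -0.08 at the brightest probe set, and its dimmest one was lower by -1.07 (8.41, 7.61 and 8.09 in AKR F1, against 8.99, 9.05 and 9.27 in DBA F1). Eif2s1, the alpha subunit gene, was not analysed here.

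Eif2a, which is not part of eIF2 and can deliver initiator tRNA by another route, was lower in AKR F1. It was at 7.35, 7.19 and 7.34 in AKR F1, against 7.64, 8.06 and 8.10 in DBA F1, with DBA F1 array 1 nearest to the other cross. The difference was -0.64 (SE 0.13, limma adjusted p = 0.018). A second probe set was at 6.41, 6.59 and 6.74 in AKR F1, against 7.25, 7.51 and 7.18 in DBA F1, and passed the probe set test with a difference of -0.74. The gene did not pass when an AKR F1 array or DBA F1 array 2 was left out (adjusted p up to 0.080). Eif2d, another carrier of initiator tRNA, differed by -0.15, and none of its 6 probe sets passed.

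Start codon selection depends on eIF1, eIF1A and eIF5. Eif1a was lower in AKR F1, at 8.14, 7.87 and 7.67, against 8.49, 8.51 and 8.38 in DBA F1. The AKR F1 arrays were the more spread, and the difference was -0.57 (SE 0.13, limma adjusted p = 0.022). It was lost without AKR F1 array 2 or 3 or DBA F1 array 2 (adjusted p up to 0.084). A second, dimmer probe set of Eif1a differed by -0.28 and did not pass (limma adjusted p = 0.096). The mean of both passed, at -0.42 (adjusted p = 0.013). A dim probe set that Eif1a shares with other symbols differed by 0.01. The X-linked relative of Eif1a, Eif1ax, encodes a near-identical protein, so that probes may read both. Eif1ax differed by 0.05 (95% interval from -0.15 to 0.26). Eif1b and Eif1ad overlapped between the crosses, at 0.27 and 0.12, and Eif1 was not analysed here.

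Eif5, which triggers GTP hydrolysis on eIF2 once a start codon is found, did not pass at its brightest probe set but did at the other 4. The brightest was at 11.44, 10.97 and 11.05 in AKR F1, against 11.57, 11.41 and 11.59 in DBA F1, where AKR F1 array 1 fell inside the DBA F1 range. The difference was -0.37 (SE 0.13, limma adjusted p = 0.097), and it passed without that array (adjusted p = 0.037). The next probe set was at 11.36, 10.61 and 10.85 in AKR F1, against 11.73, 11.62 and 11.74 in DBA F1 (difference -0.76). The third was at 11.02, 10.86 and 10.98 in AKR F1, against 11.30, 11.31 and 11.42 in DBA F1 (difference -0.39). In both, AKR F1 array 1 was the closest to the DBA F1 arrays. The fourth was at 10.31, 9.76 and 9.95 in AKR F1, against 10.52, 10.69 and 10.52 in DBA F1 (difference -0.57). The dimmest was at 7.43, 7.18 and 7.46 in AKR F1, against 7.92, 8.12 and 8.41 in DBA F1 (difference -0.80). None of these 4 overlapped between the crosses, and their adjusted p over all probe sets ran from 0.012 to 0.037.

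Among the eIF4 genes, the eIF4A helicase gene Eif4a2 and the scaffold gene Eif4g2 were lower in AKR F1. Eif4a2 was at 10.92, 10.89 and 10.89 in AKR F1, against 11.38, 11.12 and 11.35 in DBA F1. Its AKR F1 arrays were almost level, and the difference was -0.38 (SE 0.10, limma adjusted p = 0.035). Eif4g2, known as DAP5, lacks the cap-binding partner site of its relatives and serves other routes of initiation. It was at 12.24, 12.21 and 12.20 in AKR F1, against 12.51, 12.70 and 12.44 in DBA F1, with a difference of -0.33 (SE 0.10, limma adjusted p = 0.0498). Of the 6 fits that left out 1 array, Eif4a2 passed only without DBA F1 array 2 and Eif4g2 only without DBA F1 array 3, with adjusted p up to 0.12 and 0.15 in the others. A second probe set of Eif4g2 was at 11.05, 10.88 and 10.90 in AKR F1, against 11.52, 11.34 and 11.34 in DBA F1, and passed the probe set test with a difference of -0.46 (adjusted p = 0.023). The brightest probe set did not pass the probe set test (adjusted p = 0.060), 3 others differed by -0.15, -0.13 and 0.08, and the mean over all 5 gave -0.20 (adjusted p = 0.091). The brightest also missed the threshold after centring the arrays on their medians (adjusted p = 0.061).

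The other eIF4 genes did not pass at their brightest probe sets. Eif4e, the cap-binding protein, was at 10.73, 10.32 and 10.52 in AKR F1, against 10.78, 10.82 and 11.06 in DBA F1. The arrays did not overlap, although AKR F1 array 1 lay close to the DBA F1 arrays, and the difference was -0.37 (SE 0.13, limma adjusted p = 0.089). Its relatives Eif4e2 and Eif4e3 differed by 0.09 and -0.16. The main helicase gene Eif4a1 was uneven within AKR F1, at 12.44, 11.73 and 11.86, against 11.75, 11.80 and 12.00 in DBA F1 (difference 0.16, 95% interval from -0.24 to 0.56). Eif4b and Eif4h differed by 0.11 and -0.04, and the 95% interval of Eif4g3 ran from -0.23 to 0.22. Eif4a3, which marks exon junctions rather than the cap, was read only from a dim probe set, with means of 4.53 in AKR F1 against 4.56 in DBA F1. Eif4g1 was not analysed here.

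The eIF4E-binding proteins, which mTOR signalling switches off by phosphorylation, gave no gene call at their brightest probe sets. Eif4ebp2 was at 9.80, 9.93 and 9.97 in AKR F1, against 10.05, 9.77 and 8.74 in DBA F1. DBA F1 array 3 stood more than 1 log2 unit below the other arrays of its cross, and the difference of 0.38 had a 95% interval from -0.27 to 1.04. Its second brightest probe set was higher in AKR F1 by 0.99 (8.24, 8.14 and 8.31, against 7.64, 7.30 and 6.80 in DBA F1, adjusted p = 0.016 over all probe sets in limma). All 5 of its probe sets had a positive difference, and their mean gave 0.47 and passed (limma adjusted p = 0.024). Eif4ebp1 and the eIF4E transporter gene Eif4enif1 overlapped between the crosses, at 0.18 and 0.06.

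Late in the pathway, Eif6 was higher in AKR F1. Its protein binds the large ribosomal subunit, acts in the making of that subunit and keeps it from joining too early. Eif6 was at 10.28, 10.18 and 10.22 in AKR F1, against 9.76, 9.78 and 9.71 in DBA F1. Both crosses were tight and well apart, with a difference of 0.47 (SE 0.08, limma adjusted p = 0.010), which is 1.39-fold. A second, dimmer probe set differed by 0.03, and with the mean of both the gene did not pass (adjusted p = 0.085). Eif5b, the GTPase of subunit joining, had a difference of -0.17 at the brightest probe set, and the next was lower, at 7.72, 7.26 and 7.30 in AKR F1, against 8.09, 8.23 and 8.20 in DBA F1 (difference -0.75).

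Eif5a, whose protein carries the modified residue hypusine and eases ribosomes over difficult stretches, had the highest signal of the 42 genes. It was at 13.37, 13.30 and 13.32 in AKR F1, against 13.22, 13.25 and 13.02 in DBA F1, with no overlap and a difference of 0.17 that did not pass (limma adjusted p = 0.27). Its relative Eif5a2 was dim, with means of 5.82 in AKR F1 against 6.06 in DBA F1, and differed by -0.23 (adjusted p = 0.12). Eif4g2 and Eif3f had the next highest signals, at means of 12.38 and 12.16 over all arrays, and Eif4a3 the lowest. Signals of different probe sets depend on their probes, so these ranks are no measure of transcript number.

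Over the 118 probe sets the split was less even than over the genes. In the test of all probe sets 7 were higher in AKR F1 and 22 lower, 24.6% in all, against 12.3% of all probe sets, of which 5.57% were higher and 6.73% lower. Of the 118, 94 lay above the median level. In a fit of only the probe sets above that level, 29.8% of these 94 were called, against 24.7% of all. The other shares in this paragraph were not matched for signal. The arrays of the crosses did not overlap for 57 probe sets (48.3%), against 33.0% of all. The called probe sets belong to 19 genes, and no gene had called probe sets of both signs. Eif3a and Eif5 each gave 4 of the 22 lower ones and Eif3e gave 3. Probe sets of the same gene are not independent, so the split over probe sets counts some genes repeatedly. In 9 of these genes the brightest probe set did not pass the gene test. The count of 29 was 10 without AKR F1 array 2, 10 without array 3 and 17 without DBA F1 array 2. These are 8.47%, 8.47% and 14.4% of the 118, against 4.19%, 3.74% and 6.55% of all probe sets in the same fits. With each gene read as the mean over its probe sets instead of the brightest, 4 genes were higher and 10 lower, among them 8 of the 11 genes named above. That is 33.3% of the 42 genes, against 16.1% of all genes read the same way. The calls gained by this reading were Eif4ebp2, higher (0.47), and 5 lower genes. These were Eif5 (-0.58), Eif2s3x (-0.42), Eif3m (-0.40), Eif2s2 (-0.36) and Eif5b (-0.27). Limma adjusted p for the gained calls ran from 0.016 to 0.047. The 3′ minus 5′ index was higher in every AKR F1 array, as given above. Where each probe set lies along its transcript was not analysed here.

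**Figure D3:**
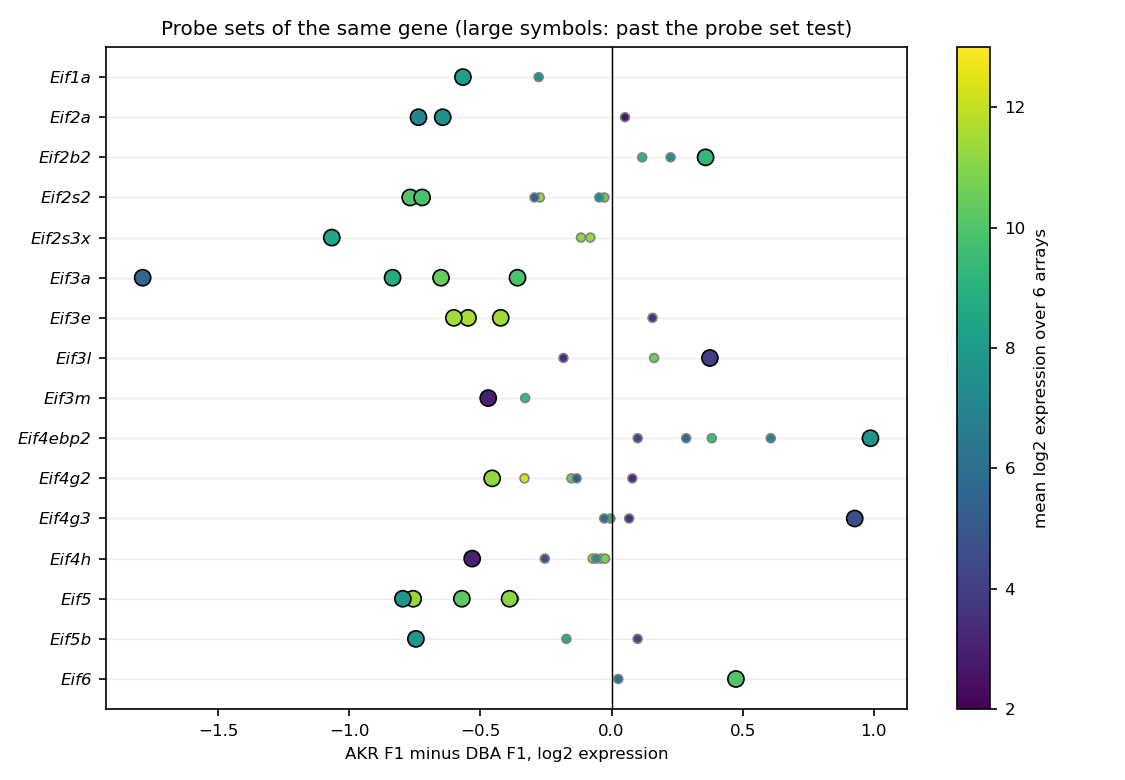
Difference in log2 expression (AKR F1 minus DBA F1, horizontal axis) of every probe set of the 16 initiation factor genes that have several probe sets and at least 1 past the probe set test; large outlined symbols passed and colour gives the mean log2 expression over 6 arrays. Eif3a, Eif3e and Eif5 have 3 or more probe sets past the test, all of them lower in AKR F1.

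Eif3a was lower at all 4 of its probe sets, with differences of unequal size. Beside the brightest at -0.65, the next was at 9.65, 9.62 and 9.79 in AKR F1, against 10.02, 10.01 and 10.10 in DBA F1 (difference -0.36). The third was at 8.36, 8.11 and 8.43 in AKR F1, against 8.97, 9.02 and 9.42 in DBA F1 (difference -0.83). The dimmest differed by -1.79, the largest difference of the 118. It was at 5.10, 4.52 and 4.79 in AKR F1, against 6.60, 6.52 and 6.65 in DBA F1 (adjusted p = 0.00091 over all probe sets in limma), and it was the one member probe set that passed with the 3′ minus 5′ index as a covariate. Eif3e was lower at 3 of 4 probe sets. Beside the brightest at -0.55, the second was at 11.15, 11.32 and 11.35 in AKR F1, against 11.71, 11.65 and 11.73 in DBA F1, and the third at 11.08, 11.18 and 11.25 in AKR F1, against 11.69, 11.86 and 11.76 in DBA F1. These differences were -0.42 and -0.60, and the one that did not pass was as dim as the lower quartile, with means of 3.74 in AKR F1 against 3.58 in DBA F1. Eif4g3, whose brightest probe set did not differ, had a dim one that was higher in AKR F1 by 0.93 (4.85, 5.12 and 5.26, against 4.18, 3.75 and 4.52 in DBA F1). Eif3m had a called probe set at 2.56, 2.62 and 2.88 in AKR F1, against 3.21, 3.23 and 3.03 in DBA F1, and Eif4h one at 2.67, 2.90 and 2.71 in AKR F1, against 3.39, 3.33 and 3.14 in DBA F1. That of Eif3l was at 4.21, 4.15 and 4.15 in AKR F1, against 3.67, 3.80 and 3.92 in DBA F1. These 3 were close to or under the lower quartile in both crosses and differed by -0.47, -0.53 and 0.37. Sequence variants of the strains that lie under a probe were not analysed here, nor were transcripts of related genes that a probe set may also read. Where 1 of several probe sets differs, what changed in the transcript is therefore uncertain.

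Regulators of initiation and factors of the later steps were read from a list of 51 genes, of which 48 were measured. In AKR F1 4 were higher and none was lower, 8.33% of the list against 15.2% of all genes, and the median was -0.05. Of the 48, 46 lay above the median level, where 22.3% of all genes were called. With the mean of each gene's probe sets the list had 2 higher and 6 lower, so its direction depended on the choice of probe set. Eif2ak1, the heme-regulated eIF2 kinase of red cell precursors, was at 10.95, 11.04 and 10.97 in AKR F1, against 10.34, 10.46 and 10.22 in DBA F1. The crosses were far apart, with a difference of 0.65 (SE 0.09, limma adjusted p = 0.0064), and every fit with 1 array left out kept the call. Its 4 dimmer probe sets had differences of 0.27, 0.03, 0.67 and -0.19, and none passed. With the mean over its 5 probe sets the difference was 0.29 and did not pass (adjusted p = 0.052). Of 5 measured red cell markers 2 were called higher, beside 9.20% of all genes. They were Gata1, by 0.68, and Alas2, the first enzyme of heme synthesis in red cells, by 0.35, while Klf1 (0.21), Hba-a1 (0.02) and Epb42 (-0.22) did not pass.

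Ppp1r15a, the phosphatase subunit GADD34 that reverses eIF2 phosphorylation, was at 10.99, 10.98 and 10.89 in AKR F1, against 10.33, 10.55 and 9.90 in DBA F1. DBA F1 was the more spread of the crosses, and the difference was 0.70 (SE 0.16, limma adjusted p = 0.022). Gcn1, the partner through which stalled ribosomes activate the kinase GCN2, was at 7.83, 7.90 and 8.0 in AKR F1, against 7.44, 7.57 and 7.18 in DBA F1 (difference 0.51, limma adjusted p = 0.024). Its 4 other probe sets differed by at most 0.22 and none passed, and the mean over all 5 gave 0.14 (adjusted p = 0.27). The release factor gene Gspt2 was at 6.71, 6.63 and 6.74 in AKR F1, against 6.33, 6.05 and 6.13 in DBA F1 (difference 0.52, limma adjusted p = 0.014). Ppp1r15a and Gcn1 did not pass when an AKR F1 array was left out, and Gspt2 did not without AKR F1 array 2 or 3. The other kinase genes, Eif2ak2, Eif2ak3 and Eif2ak4, differed by -0.20, -0.22 and -0.38 and did not pass. Of 5 stress response genes that act downstream of eIF2 phosphorylation none passed, and Atf4, their main transcription factor, differed by 0.08.

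**Figure D4:**
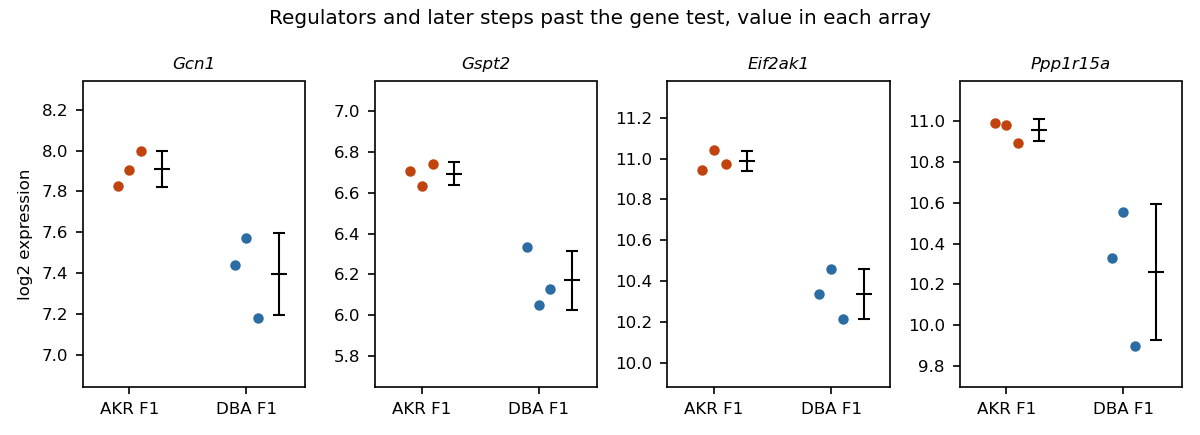
Log2 expression (vertical axis, each panel spans the same 1.5 log2 units) of the 4 regulators and later factors past the test, for 3 AKR F1 arrays (left in each panel) and 3 DBA F1 arrays (right); dots are arrays in replicate order, bars the mean ± SD. All AKR F1 arrays lie above all DBA F1 arrays, with the widest spread in Ppp1r15a of DBA F1 (9.90 to 10.55).

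The remaining groups held no call. Among 12 measured genes of mTOR and MNK signalling to the cap complex, differences ran from -0.32 for Rheb, the GTPase that activates mTOR, to 0.61 for Akt1s1, an inhibitor of mTOR (adjusted p = 0.076 and 0.052 in limma). In 7 elongation factor genes they ran from -0.77 to 0.24, with Eef2, which moves the ribosome along, at 0.22. The 5 poly(A)-binding genes and their partners lay between -0.23 and 0.19, and the 5 other helpers of initiation between -0.37 and -0.03.

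**Figure D5:**
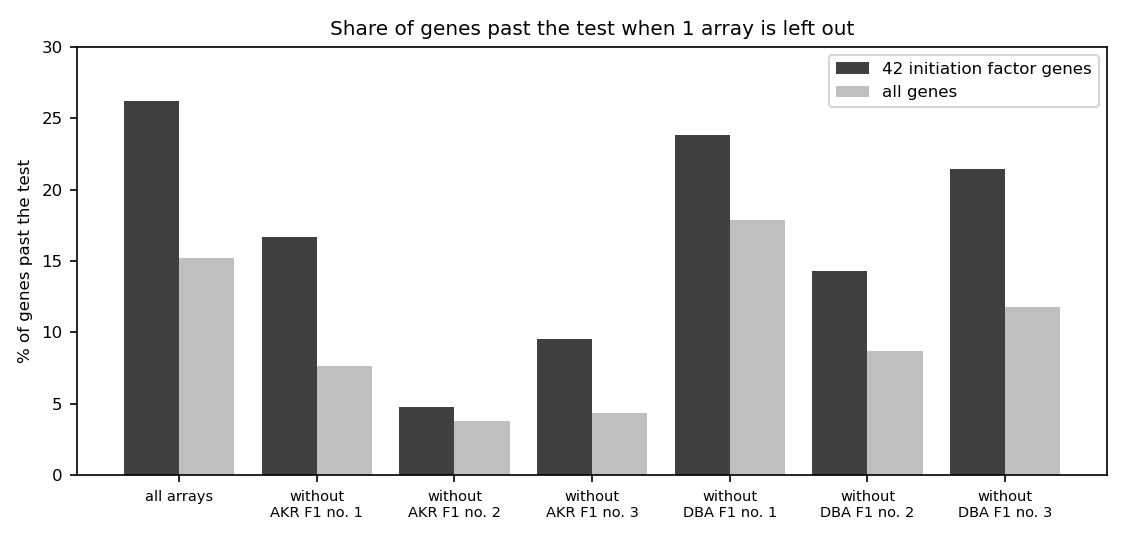
Share of genes past the test (vertical axis, percent) in the 42 initiation factor genes (dark bars) and in all 18193 genes (light bars), with all arrays and with 1 array left out at a time. The share of initiation factor genes ran from 26.2% with all arrays to 4.76% without AKR F1 array 2, where it was 3.77% over all genes.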

How the data were processed

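Bone marrow RNA was read on 6 Affymetrix arrays, per the labels. The values the authors deposited are taken as log2 and were used with no further scaling, since the array medians lie close together. RMA and MAS5 are named in the submitters' processing notes, with neither role nor version, and the log base is taken from the range of the values (2.26 to 14.88). Control probe sets (64) entered no test. Of the 45037 others 34945 have 1 symbol in the platform's annotation, 932 several and 9160 none. Groups and replicate numbers came from the sample titles, and 0 per-sample columns were left unused.

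Each gene was read from its brightest single-symbol probe set. limma 3.58.1 in R 4.3.3 was fitted to all genes, and separately to all probe sets, over 6 arrays, leaving 4 residual degrees of freedom, and its two-sided p-values were adjusted by Benjamini-Hochberg. The steps were tested on simulated data. Alternatives were other scalings, a filter on dim probe sets, other variance models, covariates, a replicate block, other thresholds, the mean of probe sets and leaving out each array. Values in every array are given for each member past the gene test. Values of members past only the probe set test, of the 3 highest and 3 lowest members by signal and of called regulators are given too, and the others are summarised. Promoters are RefSeq's. The members and lists were chosen with earlier results of these data known.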

Additional observations from a re-analysis of the deposited data

How the results depend on the processing

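Of the 42 initiation factor genes 11 passed in limma. Leaving out 1 array gave between 2 and 10, and for the 29 probe sets between 10 and 24 and for the 4 regulators between 1 and 7. At an adjusted p of 0.01 the counts were 1 gene and 5 probe sets. With the 3′ minus 5′ index as a covariate they were 0 genes, 1 probe set and 0 regulators, and with the hybridization controls or the muscle mean as a covariate 0 of each. The cause was not tested. These covariates separate the crosses, and in these fits the standard errors were larger and the fitted differences moved as well. With array weights 10 regulators passed, 7 higher and 3 lower, and with the mean of each gene's probe sets 8, 2 higher and 6 lower. Quantile normalization, median centring, leaving out dim probe sets, a robust fit with a variance trend, array weights and the mean of probe sets gave 9 to 15 member genes. The 15 came with array weights, where 22.8% of all genes passed, against 15.2% without them, and the 9 with median centring, where 13.8% did. With the replicate number as a block 7 member genes passed (3 higher, 4 lower, beside 13% of all genes), 23 probe sets and 5 regulators, but the arrays share only a number: deviations from the group means of same-numbered arrays correlated at 0.01, -0.06 and 0.07 across genes, which are not independent replicates. No called value changed sign in any of these fits. Over 28 named genes and all alternatives, 324 values kept their side of the threshold and their sign, 95 fell below it, 13 rose past it and 15 that were uncalled changed sign. The number of arrays limits precision, and no detection calls were used.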

Other observations

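Some initiation factors were covered only or also by probe sets that carry several symbols and so belong to no gene above. The brightest of the 3 probe sets shared by Eif3j1 and Eif3j2, which encode the loosely bound eIF3j, was at 10.59, 10.69 and 10.60 in AKR F1, against 10.65, 10.80 and 10.93 in DBA F1 (difference -0.16, adjusted p = 0.34 in limma). The probe set shared by Eif4a3 and Gm5576 was bright, unlike the single-symbol one of Eif4a3, with means of 11.00 in AKR F1 against 10.94 in DBA F1 (0.06 apart, adjusted p = 0.68). The probe set shared by Eif4ebp3 and Ankhd1 differed by 0.11 (adjusted p = 0.56). None of the 6 such probe sets passed.

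Eef1a2, the form of elongation factor 1 alpha found in muscle and neurons, was picked out after its values were seen. Its mean was 7.15 in AKR F1 against 7.92 in DBA F1, and the difference of -0.77 did not pass (adjusted p = 0.175 in limma). The muscle marker means given above were also lower in AKR F1.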
